A study of Homo sapiens with 17 samples.

Results

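The integrated stress response genes described here are 9 genes controlled by or acting with the transcription factor ATF4, chosen by their Ensembl identifiers from the 19867 rows of a table of newly made RNA. They are *ATF4* (ENSG00000128272), *DDIT3* (ENSG00000175197), *TRIB3* (ENSG00000101255), *ASNS* (ENSG00000070669), *PSAT1* (ENSG00000135069), *PHGDH* (ENSG00000092621), *CHAC1* (ENSG00000128965), *SESN2* (ENSG00000130766) and *GDF15* (ENSG00000130513), and all 9 have a row. The RNA came from wild-type SNU-761 cells, a human cell line of liver carcinoma. It was measured by SLAM-seq, in which thiouridine taken up by the cells gives a C at positions where the gene has a T, so that reads with T>C conversions count RNA made while the label was present. One experiment used VT107, a small molecule inhibitor of the TEAD transcription factors, at 0.1 and 2.15 µM against DMSO, with 2 libraries per group. The other used intetumumab (a biosimilar), which binds integrins made with ITGAV, at 1.5 and 5 µg/ml, and a human IgG1 kappa isotype at 5 µg/ml served as its control, in groups of 3 libraries. Cells of all 6 groups were collected at 4 h of treatment, and 1 library per experiment came from cells without thiouridine. Only 1 cell line was used, and nothing in the labels says that replicates were separate cultures, so the p-values below measure the spread between these libraries, which may be technical.

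In the integrated stress response, kinases that sense amino acid shortage, unfolded protein, viral RNA or lack of haem phosphorylate the translation factor eIF2. Most translation then falls, while the ATF4 message is translated more, because of small upstream reading frames. ATF4 protein pairs with other bZIP factors and binds composite elements in genes of amino acid uptake and synthesis, redox balance and cell death. Since ATF4 is raised mainly in translation, counts of new *ATF4* RNA are not a measure of ATF4 protein, and its target genes are the usual transcriptional readout. In liver cells the same genes answer to amino acid supply and mitochondrial stress. The levels below are shares of the new RNA of a whole culture, so fewer responding cells and less new RNA per cell cannot be told apart.

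The labelled libraries held 789214 to 1778876 counts in the VT107 experiment and 435343 to 950281 in the intetumumab experiment. Levels are given as counts per 1e6 (CPM) after TMM scaling within each experiment. Reads came from the 3′ ends of transcripts and were counted only when converted, so levels depend on the T content of each gene's end, and genes are not compared with each other by level. The unlabelled libraries held 12 counts of *ATF4*, 2 of *SESN2*, 2 of *GDF15* and 1 of *TRIB3* in the VT107 experiment. Against the mean labelled count these were 1.07%, 1.21%, 0.266% and 1.49%. The unlabelled library's total was 10702 counts, 0.949% of the mean labelled total. There was 1 count of *PSAT1* in the intetumumab experiment (2.26%). The other members had no count there, so the counts without thiouridine were small beside the labelled counts. The counts hold converted reads only, and the full read depth of the unlabelled libraries is not known here. A rate of conversion without thiouridine was therefore not measured. All counts of *ATF4* in labelled libraries were multiples of 3 and all of *PHGDH* multiples of 2. Those of *CHAC1* were multiples of 3 in the VT107 experiment and of 2 in the other, and those of *ASNS* multiples of 2 in the intetumumab experiment. Whether reads were counted more than once is not stated. *ATF4* also has processed pseudogene copies, and how reads that match several places were counted is not given in the sources used here.

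The regions upstream of the members' starts are shown first for those that hold an element of the factors in question, and for *SESN2*, on which the main result below turns. ATF4 with a C/EBP partner binds elements built on TGATGNAA, and TEAD factors bind GGAATG. Both were searched on both strands in the RefSeq promoters of build GRCh38.p14, from 250 bases before to 50 after each start, and no match of one overlaps a match of the other in these genes. All 9 genes were matched by symbol, with 14 promoters in all. The first motif was found in *ASNS* and *CHAC1*, 2 of 9 genes, and in 3.62% of all 35116 promoters. The second was found only in *GDF15* among the 9, and in 14% of all promoters. The members are counted by gene, with a match in any of their promoters, and the background by promoter. The shares are thus in unlike units and are not compared. Matches are in capitals, written along the gene's strand. They lie at chr7:97872469-97872476 (*ASNS*, minus strand, starting 68 bases before the start site), chr15:40953262-40953269 (*CHAC1*, plus strand, 209 bases before, as the reverse complement TTGCATCA) and chr19:18385928-18385933 (*GDF15*, plus strand, 230 bases before). The 250 bases before the *SESN2* start, chr1:28259268-28259517 on the plus strand, held neither motif. A match is a description of letters and not a bound site, and no match says only that these letters are not in the window.
ASNS: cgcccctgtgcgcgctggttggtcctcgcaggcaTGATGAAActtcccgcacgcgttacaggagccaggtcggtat
CHAC1: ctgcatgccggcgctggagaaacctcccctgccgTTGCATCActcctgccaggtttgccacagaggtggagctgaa
GDF15: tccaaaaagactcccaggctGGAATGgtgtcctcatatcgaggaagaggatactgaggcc
SESN2: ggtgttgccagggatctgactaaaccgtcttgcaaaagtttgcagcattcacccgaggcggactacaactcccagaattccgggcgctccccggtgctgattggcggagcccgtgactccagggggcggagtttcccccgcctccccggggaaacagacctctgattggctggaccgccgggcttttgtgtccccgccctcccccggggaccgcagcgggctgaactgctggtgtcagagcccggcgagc

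New *SESN2* RNA fell with VT107, and it was the only 1 of the 9 genes called in any comparison. *SESN2* encodes Sestrin 2, a leucine-binding protein that restrains mTORC1 and is induced by ATF4 and by p53. It lies on chromosome 1 (GRCh38.p14, 28259518 to 28282491). Its level was 328 and 241 CPM in the DMSO libraries (306 and 249 counts), 115 and 72.9 at 0.1 µM (98 and 58 counts), and 91.4 and 84.1 at 2.15 µM (169 and 109 counts). All 4 VT107 libraries thus lay below both DMSO libraries, and the doses overlapped each other. With both doses averaged, *SESN2* stood at a log2 fold change of -1.64 (SE 0.25, 95% interval -2.23 to -1.06), a 3.12-fold fall, with an adjusted p of 0.0471 by edgeR's quasi-likelihood test with Benjamini-Hochberg adjustment over 10083 genes.

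Taken dose by dose, *SESN2* missed the threshold when the VT107 experiment was fitted alone with the filter on low counts. The log2 fold change of *SESN2* was -1.59 at 0.1 µM (SE 0.31, unadjusted p = 0.000871, adjusted p = 0.148, edgeR) and -1.69 at 2.15 µM (SE 0.31, unadjusted p = 0.000519, adjusted p = 0.107). The doses differed by -0.10 (95% interval -0.82 to 0.62), so a dose difference within that interval is not excluded at this depth and replication. All comparisons with DMSO rest on the same 2 libraries, and no other vehicle library separates their level from the treatment. Under the scaling that fitted all labelled libraries together, *SESN2* stood at 290 ± 68.0 CPM in DMSO (SD, n = 2) and at 96.8 ± 5.43 with the isotype (SD, n = 3). The VT107 groups stood at 95.4 ± 30.8 and 89.3 ± 5.34 on that scale (SD, n = 2 each).

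The call with both doses was near its threshold. It was lost when any 1 of the 6 libraries was left out (DMSO replicate 1 or 2, VT107 0.1 µM replicate 1 or 2, VT107 2.15 µM replicate 1 or 2), with log2 fold changes from -1.85 to -1.40, unadjusted p from 0.000175 to 0.00196 and adjusted p from 0.0579 to 0.223. It was also lost under total count scaling (-1.51, adjusted p = 0.0684). At each dose alone *SESN2* was called by edgeR without the filter on low counts (adjusted p = 0.00757 at 0.1 µM and 0.00319 at 2.15 µM) and by edgeR with all labelled libraries in one fit (adjusted p = 0.0143 and 0.00633). Over all genes the first called 171 and 199 of 13575 and the second 72 and 155 of 10227, where the main fit called 0 and 11 of 10083. DESeq2, run without that filter but with its own default filter on mean count, also called *SESN2* at each dose (adjusted p = 0.00119 and 0.000116) and with both doses (adjusted p = 1.82e-05). Over all genes DESeq2 called 177, 240 and 284 in these comparisons, with 13575 given a p-value.

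**Figure D1:**
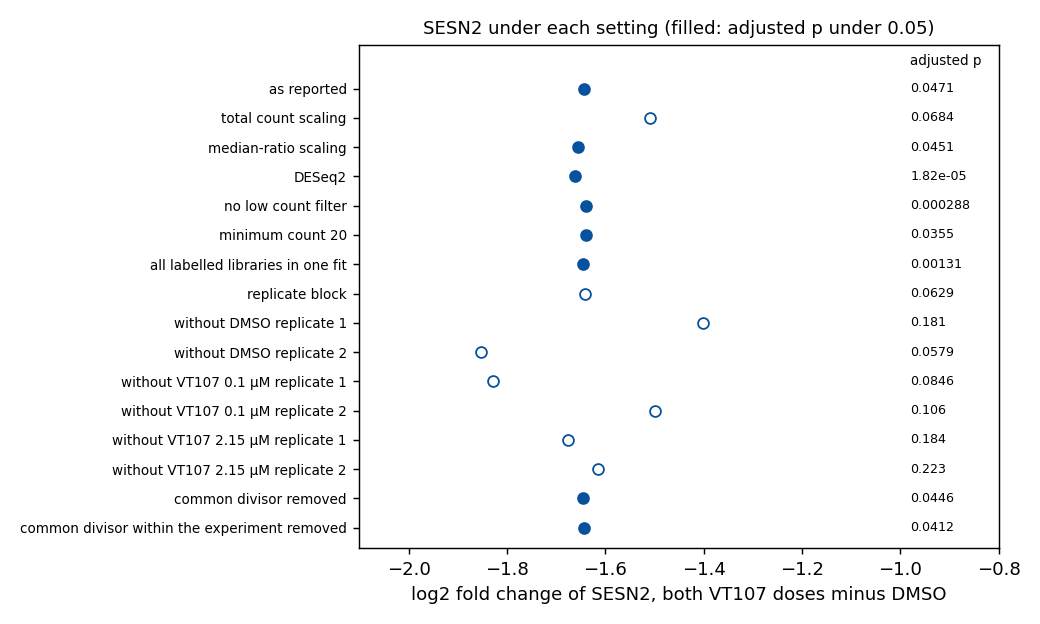
Log2 fold change of SESN2 (x axis) with both VT107 doses averaged against DMSO, under each setting (rows), with the adjusted p at the right. Filled points have an adjusted p under 0.05; every value lies between -1.85 and -1.40, and 8 of 15 alternatives lose the call.

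*TRIB3* showed lower values in the same libraries without passing the threshold. It encodes a pseudokinase that binds ATF4 and DDIT3 and damps the response as a feedback. Its level was 116 and 70.6 CPM in DMSO, 60.1 and 54.0 at 0.1 µM, and 36.3 and 47.8 at 2.15 µM. Every VT107 library lay below both DMSO libraries, but the DMSO libraries differed from each other by more than the lower of them differed from the 0.1 µM group. The log2 fold change was -0.93 with both doses (SE 0.32, unadjusted p = 0.0179, adjusted p = 0.263, edgeR) and -1.15 at 2.15 µM (SE 0.38, unadjusted p = 0.0147, adjusted p = 0.300). With intetumumab *TRIB3* was at 41.0, 29.0 and 43.2 CPM with the isotype, 44.4, 29.0 and 50.1 at the lower antibody dose and 30.0, 35.2 and 21.8 at the higher, with overlap throughout (both doses: -0.14, 95% interval -0.77 to 0.48).

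*ATF4*, the regulator itself, gave no call under either agent. Its new RNA stood at 1188 and 818 CPM in DMSO, 1445 and 1059 at 0.1 µM, and 739 and 1034 at 2.15 µM, and the 3 groups overlapped one another except that both 2.15 µM libraries lay below both at 0.1 µM (log2 difference -0.50, SE 0.26, adjusted p = 0.952, edgeR). With both VT107 doses the log2 fold change was 0.07 (95% interval -0.44 to 0.58). With intetumumab it was at 484, 414 and 453 CPM with the isotype, 375, 552 and 401 at the lower antibody dose and 325, 381 and 419 at the higher, and both doses together gave -0.14 (95% interval -0.47 to 0.19). *ATF4* had 9501 labelled counts in all, each a multiple of 3 as given above.

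*DDIT3* encodes CHOP, the bZIP factor that ATF4 induces under prolonged stress and that promotes cell death. It stood at 55.8 and 49.3 CPM in DMSO, 74.2 and 74.1 at 0.1 µM, and 69.8 and 54.0 at 2.15 µM. The 0.1 µM libraries lay above both DMSO libraries and those at 2.15 µM overlapped them, with a log2 fold change of 0.37 for both doses (95% interval -0.30 to 1.04, adjusted p = 0.638, edgeR). With intetumumab it was at 82.0, 62.1 and 81.0 CPM with the isotype, 98.2, 108 and 77.2 at the lower antibody dose and 108, 97.4 and 83.2 at the higher. The 3 libraries at 5 µg/ml lay above all isotype libraries, and both doses together gave 0.34 (95% interval -0.10 to 0.79, adjusted p = 0.720).

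Among the amino acid enzymes, *ASNS*, which makes asparagine from aspartate, had few counts. They were 0 and 17 in DMSO, 7 and 8 at 0.1 µM, and 46 and 30 at 2.15 µM, or 0 and 16.4, 8.25 and 10.0, and 24.9 and 23.1 CPM. Both 2.15 µM libraries lay above both DMSO libraries, but the spread between the DMSO libraries left a log2 fold change of 1.51 with an interval of -0.98 to 4.00 (adjusted p = 0.663, edgeR). Without DMSO replicate 1, the library with no count, it was 0.55 (adjusted p = 0.796). Without DMSO replicate 2 no DMSO count is left, and the fitted value of 7.79 (adjusted p = 0.0941) depends on the prior count and is no size. In the intetumumab experiment *ASNS* did not pass the filter on low counts: it had 0, 0 and 14 counts with the isotype, 0, 8 and 0 at 1.5 µg/ml and none in the 3 libraries at 5 µg/ml. If each count is 1 read, a group with none allows up to 1.54 CPM (3 counts over that group, counting error only). *ASNS* counts in this experiment were multiples of 2, so that bound may be too low.

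*PSAT1* and *PHGDH* are enzymes of serine synthesis from a glycolytic intermediate, *PHGDH* taking the first step and *PSAT1* the next. *PSAT1* was at 10.7 and 13.5 CPM in DMSO, 4.71 and 2.51 at 0.1 µM, and 12.4 and 5.40 at 2.15 µM, which rests on 2 to 23 counts per library (both doses: log2 fold change -1.07, 95% interval -2.78 to 0.64, adjusted p = 0.585, edgeR). In the intetumumab experiment it had more counts and stood at 60.1, 69.0 and 57.2 CPM with the isotype, 49.8, 39.4 and 60.5 at the lower antibody dose and 66.8, 82.5 and 79.4 at the higher. The libraries at 5 µg/ml all lay above those at 1.5 µg/ml, with a log2 difference of 0.64 between doses (SE 0.26, unadjusted p = 0.0291, adjusted p = 0.846), while neither dose was set apart from the isotype (-0.33 and 0.30, adjusted p = 0.969 and 0.754). *PHGDH* had 8 and 0 counts in DMSO, 8 and 22 at 0.1 µM and 10 and 14 at 2.15 µM (both doses: 1.51, 95% interval -1.15 to 4.17). For *PHGDH* the value was 0.49 without DMSO replicate 2, the library with no count, and the fitted 6.83 without DMSO replicate 1 again rests on a control with no count. It had 12, 0 and 12 counts with the isotype, 14, 6 and 2 at the lower antibody dose and 4, 2 and 2 at the higher, and did not pass the filter there. The widths of these intervals show how little the counts of *ASNS* and *PHGDH* can exclude in either direction.

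*CHAC1* encodes an enzyme that degrades glutathione and is among the most inducible ATF4 targets. It was at 74.1 and 26.1 CPM in DMSO, 14.1 and 26.4 at 0.1 µM, and 30.8 and 23.1 at 2.15 µM. The higher DMSO library stood apart from the other 5, which overlapped one another, and the log2 fold change of both doses was -1.09 (95% interval -2.20 to 0.02, adjusted p = 0.373, edgeR). Without DMSO replicate 1 it was -0.16. With intetumumab *CHAC1* was at 180, 182 and 155 CPM with the isotype, 218, 195 and 188 at the lower antibody dose and 82.9, 200.2 and 99.9 at the higher. The 1.5 µg/ml libraries all lay above the isotype libraries, and at 5 µg/ml 2 of 3 lay below them, with a log2 difference of -0.63 between doses (SE 0.28, unadjusted p = 0.0438, adjusted p = 0.857).

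*GDF15*, a secreted stress hormone of the TGF-β family that acts on a brainstem receptor and is induced by ATF4, DDIT3 and p53, showed its higher values at the lower dose of VT107. It was at 591 and 612 CPM in DMSO, 1045 and 801 at 0.1 µM, and 499 and 682 at 2.15 µM. Both 0.1 µM libraries lay above the DMSO and the 2.15 µM libraries, with log2 fold changes of 0.62 against DMSO (SE 0.22, unadjusted p = 0.0221, adjusted p = 0.340, edgeR) and of -0.65 from 0.1 to 2.15 µM (SE 0.22, unadjusted p = 0.0179, adjusted p = 0.905). At 2.15 µM against DMSO it was -0.03 (95% interval -0.53 to 0.47). With intetumumab *GDF15* was at 272, 249.9 and 242 CPM with the isotype, 335, 357 and 278 at the lower antibody dose and 297, 315 and 288 at the higher. All 6 antibody libraries lay above the 3 isotype libraries, by a log2 fold change of 0.29 over both doses (SE 0.14, 95% interval -0.0036 to 0.59, unadjusted p = 0.0524, adjusted p = 0.622), which did not pass.

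**Figure D2:**
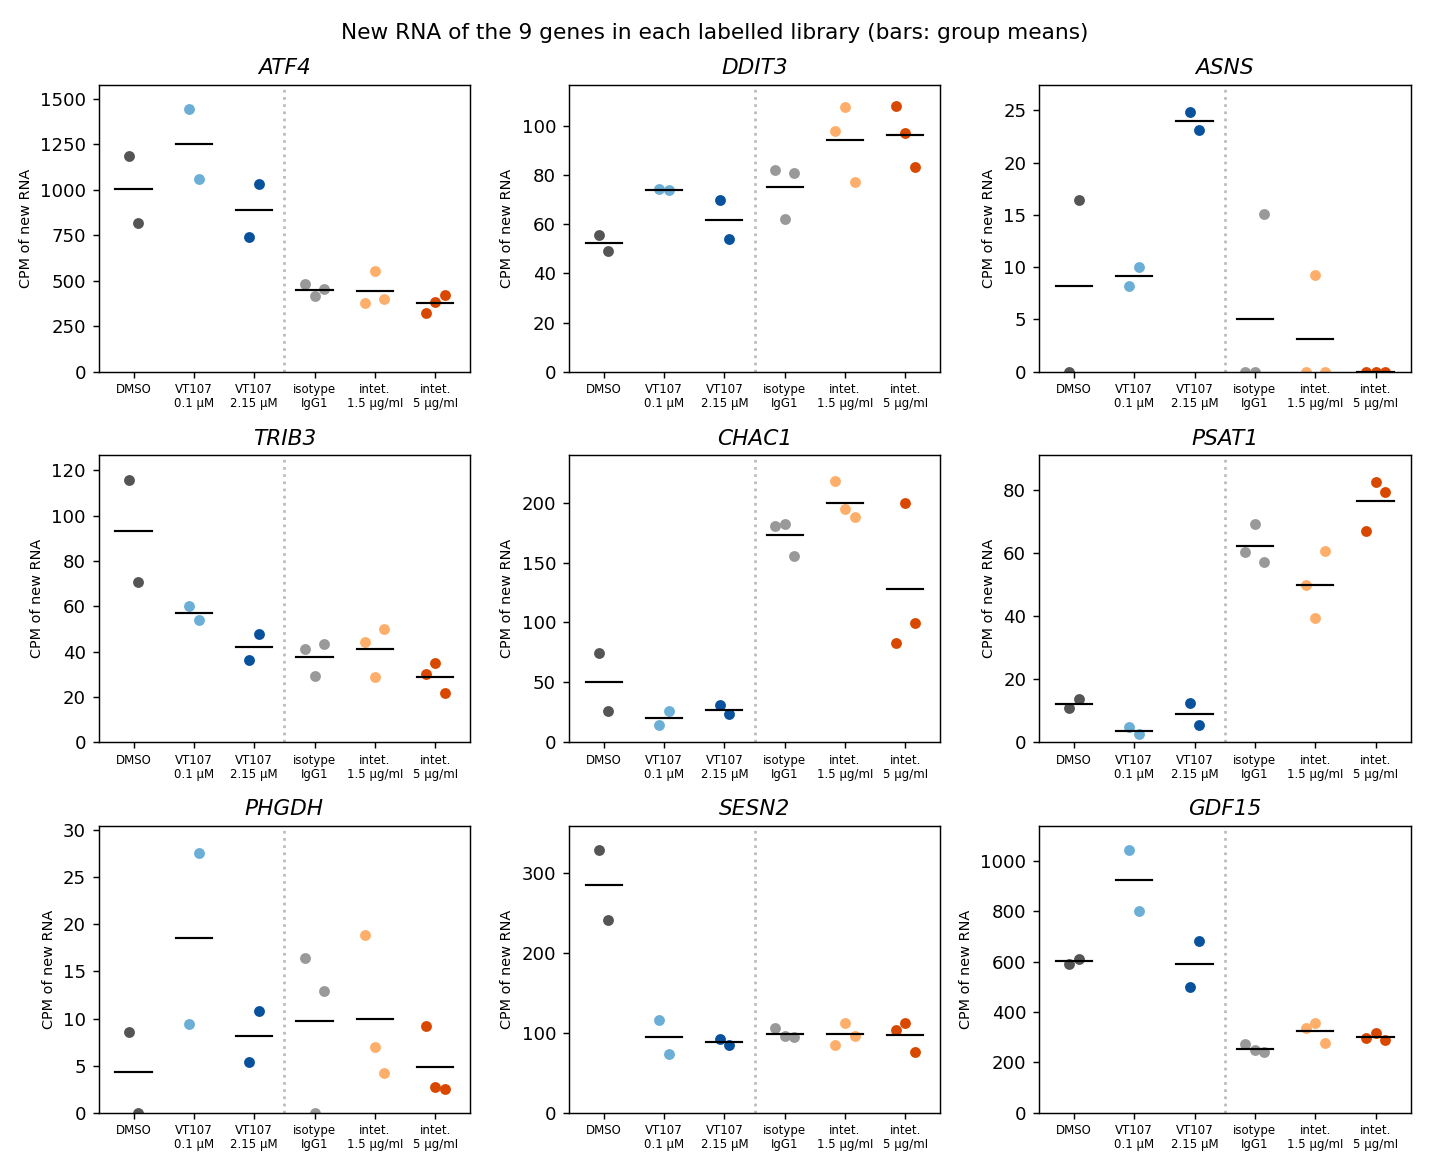
New RNA of each gene (y axis, CPM after TMM scaling within the experiment) in every labelled library, by group (x axis); points are libraries, bars are group means, and the dotted line parts the experiments. SESN2 sits at 241 to 328 CPM in DMSO and at 72.9 to 115 in the 4 VT107 libraries, and the other 8 genes show no called difference within an experiment.

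The counts over the 9 genes follow, beside those over all genes. With both doses against DMSO 1 of 9 was called (*SESN2*), where edgeR called 40 of 10083 genes tested (0.397%; 6 higher and 34 lower). An unadjusted p under 0.05 was reached by 2 of 9 lower (*SESN2* and *TRIB3*) and 0 higher, against 7.49% and 6.19% of all genes. These 2 genes were also those with all 4 treated libraries below both DMSO libraries, as were 11.4% of all genes. For the other groups described above as lying wholly above or below another, the share over all genes was not counted. Those separations are values only. The members' median log2 fold change was 0.07, beside 0.01 over all genes, with 5 values above and 4 below 0.

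At 0.1 µM edgeR called 0 of 9 and 0% of all genes. An unadjusted p under 0.05 was reached by 1 member lower (*SESN2*) and 1 higher (*GDF15*), against 6.11% and 5.98% of all genes. DESeq2 called 1 member, *SESN2*, and 177 genes in all, with 13575 given a p-value. At 2.15 µM edgeR called 0 of 9 and 0.109% of all genes, with 2 members lower at an unadjusted p under 0.05 (*SESN2* and *TRIB3*) and 0 higher, against 6.3% and 5.28%. There DESeq2 called *SESN2* again, and 240 genes in all, with 13575 given a p-value. The member medians were 0.13 and -0.18, beside 0.01 and 0.03 over all genes. Set directly against each other, the VT107 doses gave 0 calls among the members by edgeR or DESeq2. Over all genes edgeR called 0%, and DESeq2 called 6 genes, with 13575 given a p-value. By edgeR 1 of 9 reached an unadjusted p under 0.05 (*GDF15*, 5.3% of all genes).

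**Figure D3:**
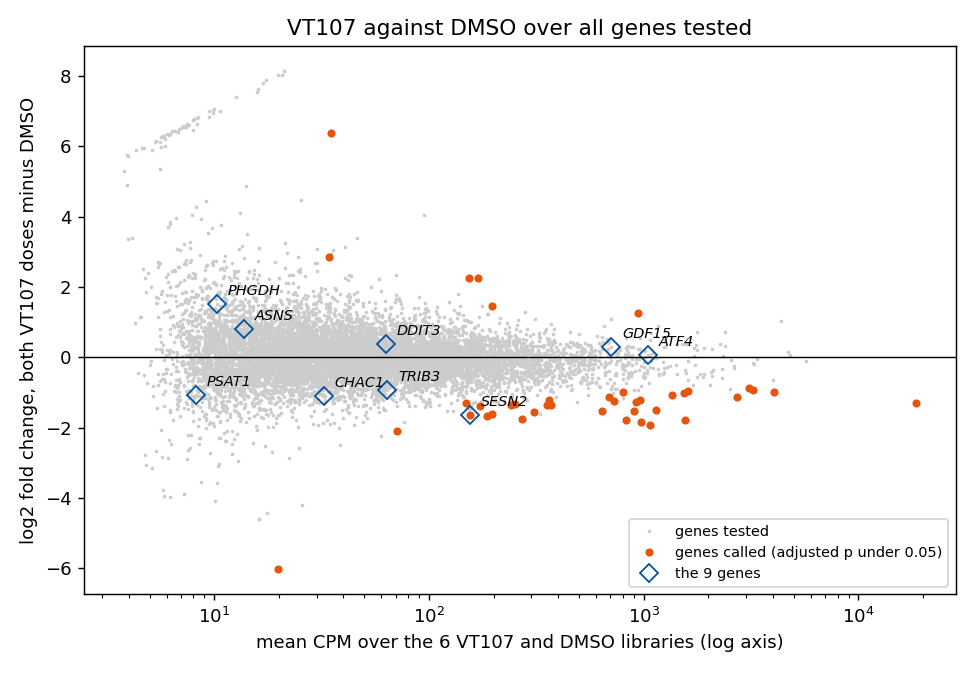
Log2 fold change of both VT107 doses against DMSO (y axis) by mean CPM over the 6 libraries (x axis, log scale) for all 10083 genes tested (grey), the 40 called (orange) and the 9 genes (diamonds). SESN2 lies among the called falls at -1.64, and the other 8 genes were not called.

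With intetumumab 7 of the 9 genes were tested and none was called. At 1.5 µg/ml edgeR called 0 of 7 members and 0% of all 9024 genes tested. There was 1 member at an unadjusted p under 0.05 (*GDF15*, log2 fold change 0.35, adjusted p = 0.903), against 5.47% of all genes. At 5 µg/ml it called 0 of 7 and 0.0887% of all genes, with 0 members at an unadjusted p under 0.05 against 9.23%. Both doses together gave 0 of 7 against 0.0887%, and 0 at an unadjusted p under 0.05 against 8.07%. Between the doses the counts were 0 of 7 against 0.0111%, and 2 (*CHAC1* and *PSAT1*) against 5.64%. DESeq2 called 0 members in each of these comparisons. Over all genes it called 45 at 1.5 µg/ml, 103 at 5 µg/ml, 91 with both doses and 1 between the doses, with 13492 given a p-value. For *SESN2*, at 105, 95.3 and 95.0 CPM with the isotype, 84.7, 112 and 96.0 at the lower antibody dose and 104, 112 and 75.6 at the higher, the interval of both doses was -0.45 to 0.41, so that a fall of the size seen with VT107 lies outside it.

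**Figure D4:**
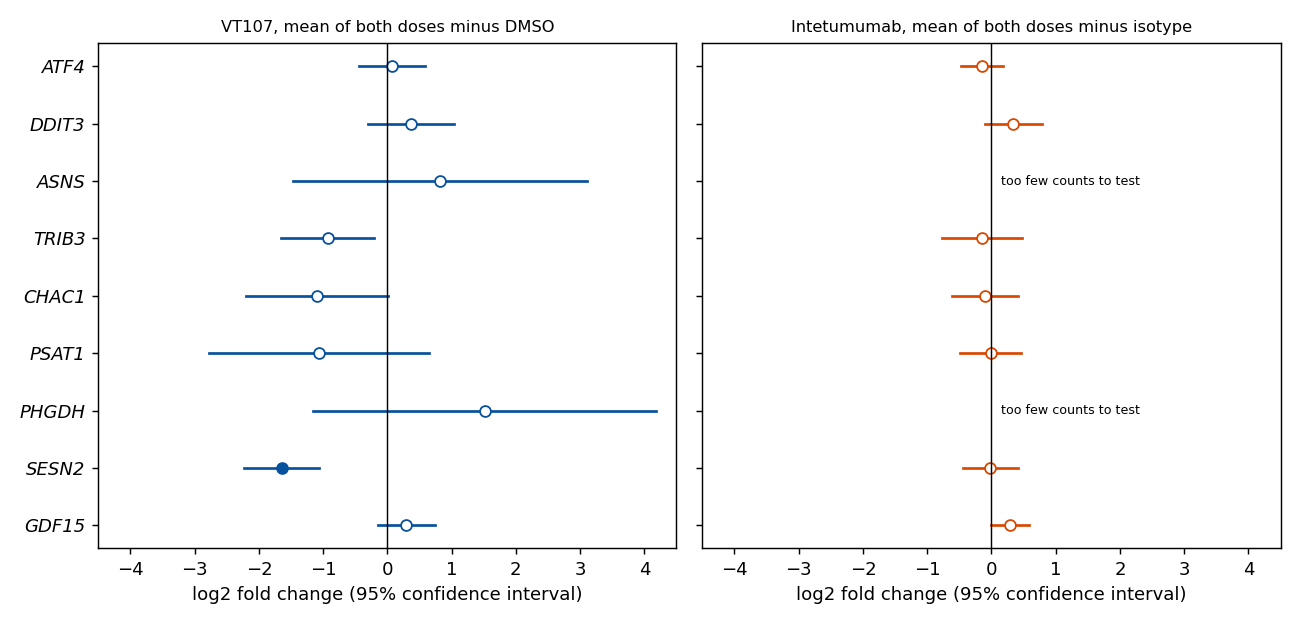
Log2 fold change (x axis) with its 95% confidence interval for each gene (rows), both doses of VT107 against DMSO (left) and of intetumumab against the isotype (right); a filled point has an adjusted p under 0.05. Only SESN2 with VT107 is filled, and ASNS and PHGDH were not tested with intetumumab.

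The difference between agents came from a joint model of the 15 labelled libraries, as the effect of VT107 at 2.15 µM minus that of intetumumab at 5 µg/ml. By edgeR 0 of 9 members were called, against 0.0782% of 10227 genes, and 2 reached an unadjusted p under 0.05 against 9.06% of all genes. *SESN2* had the larger evidence, with a difference of -1.67 (SE 0.37, unadjusted p = 0.000374, adjusted p = 0.116, edgeR). DESeq2 called *SESN2*, 1 of 9 (adjusted p = 0.00334), and over all genes it called 104, with 14199 given a p-value. The other was *ASNS* (unadjusted p = 0.0489, adjusted p = 0.549, edgeR). Its difference rests on a group with no count, intetumumab at 5 µg/ml, and is not given as a size. A difference between the effects on *SESN2* is thus called by 1 tool and not by the other.

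The control levels of several members differed between the experiments, which have no group in common, so control agent and experiment cannot be told apart and these are values without a test. On the common scaling of all 15 libraries, *ATF4* was at 1021 ± 284 CPM in DMSO and 443 ± 34.8 with the isotype, *GDF15* at 611 ± 4.14 and 250.2 ± 14.2, and *TRIB3* at 95.0 ± 34.2 and 37.1 ± 7.69 (SD, n = 2 and 3). The order was the other way for *CHAC1*, at 51.2 ± 35.3 and 169.7 ± 13.5, for *PSAT1*, at 12.3 ± 1.80 and 61.1 ± 5.72, and for *DDIT3*, at 53.4 ± 5.60 and 73.8 ± 11.3. With *SESN2*, given above, and *ASNS* (8.25 and 4.99) also higher in DMSO and *PHGDH* (4.42 and 9.64) higher with the isotype, 5 of the 9 means were higher in DMSO and 4 with the isotype.

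By the rule fixed for likeness, the mean absolute difference from the median profile of the 7 members tested in both experiments over the 4 treated groups, the nearest of 5655 candidate genes were ENSG00000204256 (0.0361) and ENSG00000146576 (0.0372). The median profile of these 7 was -0.71 and -0.42 for VT107 at 0.1 and 2.15 µM and 0.10 and -0.02 for intetumumab at its lower and higher dose, and the median candidate lay 0.443 from it. With *ASNS* and *PHGDH* included, the VT107 medians over all 9 members were 0.13 and -0.18. The profile thus depends on which members are used. No gene name was paired with these identifiers in the sources used here, and the values are a description over 4 group contrasts.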

How the data were processed

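The deposited values are raw counts of reads per gene assigned to newly made RNA, deposited by the authors after SLAM DUNK, as the series' design text says, on GRCh38, per the submitters' processing notes. Pipeline version, annotation, conversion threshold and treatment of multiple matches: not given in the sources used here. Libraries were made with a QuantSeq 3′ kit, per the labels' protocols. Each of the 17 columns carries the name of its sample.

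The counts were filtered with filterByExpr (minimum count 10), scaled by TMM and tested across all genes in edgeR 4.0.16 under R 4.3.3 (glmQLFit and glmQLFTest, two-sided), each experiment fitted on its own; genes were called at a Benjamini-Hochberg adjusted p under 0.05. DESeq2 1.42.0 was an alternative, as were other scalings, filters, sets of libraries, a replicate block, each library left out and common divisors removed. SE is the log2 fold change over the root of F. The 12 replicate pairs differed by more than counting noise (chi-square per degree of freedom 3.66 to 8.52). The test was tried on simulated counts first.

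The 9 genes and all lists were chosen with earlier results of these data known. Symbols come from the series' own rule for the 9 identifiers; the name table (59792 genes) held 0 Ensembl identifiers, so wider lists of pathway genes and cell type markers, fixed by symbol, were not analysed here. All 9 genes are described; likeness was scored by a fixed rule.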

Additional observations from a re-analysis of the deposited data

Results flagged for a closer look

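The unlabelled library of the VT107 experiment held 12 counts of *ATF4*, above the 3 counts that a count of 0 allows, in a library outside the comparisons. That bound takes each count as 1 read, while the labelled *ATF4* counts were multiples of 3. That was 1.07% of the mean labelled *ATF4* count, where the whole library of 10702 counts was 0.949% of the mean labelled total. The unlabelled library of the other experiment held 0. With 1 unlabelled library per experiment this is a value without a replicate check.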

How the results depend on the processing

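The number of the 9 genes called was 1 in place of 0 at VT107 0.1 µM, and 1 in place of 0 at 2.15 µM, with DESeq2, without the filter on low counts and in 1 fit of all labelled libraries, and 1 in place of 0 for the difference between agents with DESeq2; the gene was *SESN2* each time. With both VT107 doses it was 0 in place of 1 under total count scaling and with the replicate block, and 0 to 0 when any 1 library was left out. The cause of these changes was not tested. In the other 5 comparisons it stayed at 0 under every alternative run, including those added after the data were seen (divisors removed within an experiment, and both shallowest libraries left out). Same-numbered libraries did not deviate together (correlations of deviations -0.0152 to 0.00635 in the VT107 experiment, where 2 libraries per group leave 3 distinct values, and -0.0238 to 0.0653 over 9 pairs in the other), so the numbers do not pair them; with the replicate block, *SESN2* with both doses had a log2 fold change of -1.64 and an adjusted p of 0.0629, and calls over all genes went from 40 to 12. Under total count scaling the all-gene median there went from 0.01 to 0.15. Of 1312 alternative fold changes of single members, 55 changed sign, in 21 of 73 results, 42 of them with 1 library left out; none of these was called, and the smallest unadjusted p among them was 0.217. Under total count scaling the reversed log2 values were 0.13 (*GDF15*, VT107 2.15 µM against DMSO), 0.0079 (*ATF4*, intetumumab 1.5 µg/ml against isotype), 0.021 (*SESN2*, intetumumab 1.5 µg/ml against isotype), 0.014 (*SESN2*, intetumumab 5 µg/ml against isotype), 0.021 (*PSAT1*, intetumumab both doses against isotype), 0.018 (*SESN2*, intetumumab both doses against isotype), 0.0082 (*DDIT3*, the difference between agents). Without both shallowest labelled libraries the reversed log2 values were 0.043 (*ATF4*, intetumumab 1.5 µg/ml against isotype), -0.051 (*TRIB3*, intetumumab 1.5 µg/ml against isotype), 0.0042 (*SESN2*, intetumumab 1.5 µg/ml against isotype), -0.18 (*DDIT3*, intetumumab 5 against 1.5 µg/ml), 0.030 (*CHAC1*, intetumumab both doses against isotype), -0.025 (*ATF4*, the difference between agents). With 1 library left out, the results that changed sign ranged as follows. The upper ends for *ASNS* and *PHGDH* come from fits whose DMSO group had no count left. They depend on the prior count and are no sizes. For VT107 0.1 µM against DMSO the range was -0.84 to 6.40 (*ASNS*). For VT107 2.15 µM against DMSO the range was -0.44 to 0.12 (*ATF4*), -1.45 to 0.058 (*CHAC1*), -1.15 to 0.038 (*PSAT1*), -0.11 to 6.24 (*PHGDH*), -0.27 to 0.18 (*GDF15*). For VT107 2.15 µM against 0.1 µM the range was -0.39 to 0.28 (*SESN2*). For VT107 both doses against DMSO the range was -0.18 to 0.37 (*ATF4*), -0.15 to 7.09 (*ASNS*). For intetumumab 1.5 µg/ml against isotype the range was -0.22 to 0.086 (*ATF4*), -0.058 to 0.31 (*TRIB3*), -0.13 to 0.087 (*SESN2*). For intetumumab 5 µg/ml against isotype the range was -0.15 to 0.14 (*SESN2*). For intetumumab 5 against 1.5 µg/ml the range was -0.10 to 0.12 (*DDIT3*), -0.14 to 0.15 (*SESN2*). For intetumumab both doses against isotype the range was -0.34 to 0.0057 (*CHAC1*), -0.087 to 0.062 (*PSAT1*), -0.081 to 0.063 (*SESN2*). For the difference between agents the range was -0.18 to 0.37 (*ATF4*), -0.30 to 0.070 (*DDIT3*), -1.04 to 0.48 (*CHAC1*). Over all genes at VT107 0.1 µM, 2.15 µM and both doses, edgeR called 0, 11 and 40 of 10083 genes with the filter on low counts. Without it edgeR called 171, 199 and 301 of 13575. In 1 fit of all labelled libraries, with the filter, edgeR called 72, 155 and 197 of 10227. DESeq2 called 177, 240 and 284, with 13575 genes given a p-value. At intetumumab 1.5 µg/ml, 5 µg/ml and both doses, edgeR called 0, 8 and 8 of 9024 with the filter and 0, 13 and 23 of 13493 without it. DESeq2 called 45, 103 and 91, with 13492 genes given a p-value. DESeq2 was run without the edgeR filter but with its own default filter on mean count in the adjustment. The number of genes its adjustment ran over was therefore not counted. Low depth limits *PSAT1*, *PHGDH* and *ASNS* in the VT107 experiment (60, 62 and 108 labelled counts) and *PHGDH* and *ASNS* in the other (54 and 22).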
